A study of Mus musculus with 2 samples.

Results

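Type I interferon response genes were followed in tumor cells of a mouse model of small cell lung cancer (SCLC) and in the macrophages and club cells captured with them. The set holds 9 of the 27998 genes in the deposited table, namely Usp18, Ifit1, Ifit3, Rsad2, Isg15, Ifi27l2a, Ifitm3, Irf7 and Oasl2. It was chosen by function, with earlier results of these data known. Each cell barcode with more than 500 detected genes was used, and unique molecular identifiers (UMIs), which count captured RNA molecules, were the unit throughout. The 2 samples, TKO1 and TKO2, are single tumors from the lungs of 2 mice, with 1 single-cell RNA-seq library (10x Genomics Chromium) each. Both are labelled as lacking Rb, Trp53 and Rbl2 (p130) on both alleles, which Cre deletes in the infected cells of this conditional model. Both mice carried the Rosa26 membrane-Tomato or membrane-GFP reporter and had a mixed C57BL/6, 129/SVJ and 129/SvOla background. Both were labelled as aged 8 to 9 months and were sampled 7 months after Adeno-CMV-Cre was given to induce tumors. The CMV promoter is not restricted to a cell type, and the 2 samples share the named alleles and agent, so they have no untreated or wild type control. Whether the mice differ at other alleles of the mixed background was not tested. Because each tumor is 1 animal and 1 library, a difference between TKO1 and TKO2 cannot be told apart from a difference between mice or libraries, and no p-value was computed.

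Type I interferons are secreted proteins that bind the receptor pair Ifnar1 and Ifnar2. The kinases Jak1 and Tyk2 then activate Stat2, which acts with Irf9 at interferon-stimulated response elements in the promoters of their target genes. The products of those genes block viral entry, translation and replication, modify proteins with the ubiquitin-like Isg15, and raise antigen presentation. Several of them are induced by interferon gamma or directly by nucleic acid sensors as well, so RNA levels alone do not name the inducer.

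The promoter sequences show which of the genes carry the repeat that this complex binds. RefSeq promoter windows of GRCm38.p6, from 250 bases before to 50 bases after each gene's start, were searched on both strands for GAAANNGAAA, whose reverse complement is TTTCNNTTTC. A match was present in 1131 of 32851 windows (3.44%) and in 5 of the 7 members with a window. The windows of Irf7 and Oasl2 held no match, and Usp18 and Ifi27l2a were not searched. The stretches of 30 bases that hold the matches are given here to show how alike they are, read on the strand of the gene, with the matches in capitals. A match is a description of the letters and not a shown binding site.
Ifit1, chr19:34640775-34640804, plus strand, match 104 bases before the start: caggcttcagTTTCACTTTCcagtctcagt
Ifit1, chr19:34640794-34640823, plus strand, 85 bases before: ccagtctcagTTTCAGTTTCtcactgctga
Ifit3, chr19:34583363-34583392, plus strand, 156 bases before: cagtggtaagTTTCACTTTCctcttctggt
Ifit3, chr19:34583397-34583426, plus strand, 122 bases before: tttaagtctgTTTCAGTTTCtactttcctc
Rsad2, chr12:26456553-26456582, minus strand, 120 bases before: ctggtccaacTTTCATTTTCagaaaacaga
Isg15, chr4:156200871-156200900, minus strand, 78 bases before, 3 overlapping matches: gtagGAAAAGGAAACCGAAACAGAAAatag
Ifitm3, chr7:141010723-141010752, minus strand, 3 bases after the start: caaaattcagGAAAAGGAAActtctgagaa
Ifitm3, chr7:141010706-141010735, minus strand, 20 bases after: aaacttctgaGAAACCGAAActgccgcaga

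The members were placed on GRCm38 by matching their identifiers to GENCODE M21. Usp18 (ENSMUSG00000030107) lies on chromosome 6 from 121245906 to 121270917. Ifit1 (ENSMUSG00000034459, 34640871 to 34650009) and Ifit3 (ENSMUSG00000074896, 34583531 to 34588731) are close together on chromosome 19, with Ifit1bl1 between them. Rsad2 (ENSMUSG00000020641, 26442746 to 26456452) and Ifi27l2a (ENSMUSG00000079017, 103442167 to 103443680) are on chromosome 12. Ifitm3 (ENSMUSG00000025492, 141009586 to 141010770) and Irf7 (ENSMUSG00000025498, 141262706 to 141266481) are close together on chromosome 7. Isg15 (ENSMUSG00000035692) is on chromosome 4 from 156199424 to 156200818, and Oasl2 (ENSMUSG00000029561) is on chromosome 5 from 114896936 to 114912234. Ifit3, Ifi27l2a, Ifitm3 and Oasl2 have close relatives of similar sequence (Ifit3b, Ifi27l2b, Ifitm2 and Oasl1). Reads that fit both genes of such a pair may not be assigned to the right one, and the counts are uncertain to that extent.

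Of the barcodes, 3193 of 4514 in TKO1 and 3568 of 3816 in TKO2 had more than 500 genes, with medians of 1223 and 1960 UMIs, and 11 of the retained barcode sequences occurred in both libraries. Clusters were made in each tumor by itself without the genes of the interferon pathway and were named from fixed markers. Neuroendocrine-like clusters, called tumor cells from here on, held 2565 cells of TKO1 (3696121 UMIs) and 3382 cells of TKO2 (7762006 UMIs). Macrophage-like clusters held 96 and 121 cells, and the club-like cluster of TKO1 held 111 cells. Levels are given in CPM, a group's summed UMIs of a gene or list per 1000000 of all its UMIs. The macrophage-like cluster of TKO2 also held UMIs of T cell (354 CPM), NK cell (791 CPM) and B cell (150 CPM) markers, and that of TKO1 held them at 263, 263 and 56.9 CPM. Neutrophil markers summed to 861 CPM in TKO1 (5 of 5 with a UMI) and to 186 CPM in TKO2 (4 of 5). Both are therefore mixed immune groups led by macrophage markers, and the part of the other immune cells in their values was not tested. The 421 cells of TKO1 led by ciliated cell markers and the 65 cells of TKO2 led by club cell markers also held 12 neuroendocrine markers each and stayed unnamed. Neuroendocrine marker RNA was present in every group. The 15 markers summed to 23136 CPM in TKO1 tumor cells and to 4085 CPM (17.7% of that) in its macrophage-like cells and 7293 CPM (31.5%) in its club-like cells, and Calca alone gave 63138 of the 85514 UMIs in the tumor cells. In TKO2 they summed to 1792 CPM in tumor cells and 703 CPM (39.2%) in macrophage-like cells. In the unnamed clusters they summed to 22875 CPM in TKO1 (98.9% of its tumor cells) and to 8426 CPM in TKO2 (470%). Whether the unnamed clusters hold tumor cells was not tested. Of the 15 markers behind the name of the TKO2 tumor cells, Calca (17.8 CPM against 57.5 CPM in macrophage-like cells), Resp18 (6.70 against 13.3 CPM) and Pcsk1 (8.25 against 8.84 CPM) were not higher in them, and the other 12 were. Of those 12, Syp (6.44 against 4.42 CPM) and Ddc (93.3 against 75.1 CPM) were higher by less than 2-fold. In TKO1, Syp was not higher in tumor cells (25.2 against 28.5 CPM). The part of free RNA or doublets in the smaller groups' values was not tested. In the other direction, the 14 macrophage markers summed to 43.8 CPM in TKO1 tumor cells (11 of 14 with a UMI, Csf1r, Mrc1 and Ear2 at 0) and to 14.3 CPM in TKO2 tumor cells (12 of 14, Csf1r and Adgre1 at 0), against 45736 and 36972 CPM in the macrophage-like cells.

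The tumors were compared first in their tumor cells. Interferon response RNA was far higher in TKO1: the 9 genes together had 2855 UMIs and 772 CPM (exact Poisson 95% interval 744 to 801) there, and 183 UMIs and 23.6 CPM (20.3 to 27.3) in TKO2. All 8 members that had at least 10 UMIs over both groups were more than 4-fold higher in TKO1, and Ifit3 was at or below 1 UMI in both. Only Rsad2 and Ifitm3 had at least 10 UMIs in TKO2. The other members tested, Usp18, Ifit1, Isg15, Ifi27l2a, Irf7 and Oasl2, reached the minimum through TKO1, where they were high. The Poisson intervals and the intervals below cover counting error only.

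The Isg15 system was represented by its modifier and by the enzyme that removes it. Isg15, the ubiquitin-like protein that is attached to other proteins, had 141 UMIs (38.1 CPM) in TKO1 tumor cells and 4 UMIs (0.515 CPM) in TKO2. The ratio was 74.0-fold, or 6.21 on the log2 scale (exact binomial 95% interval 4.82 to 8.11). Usp18, the protease that takes Isg15 off its targets and also dampens signaling at Ifnar2, had 423 UMIs (114 CPM) in TKO1 and 2 UMIs (0.258 CPM) in TKO2. That was 444-fold, a log2 ratio of 8.79 (6.93 to 11.85), and with 2 UMIs in TKO2 its upper end is poorly fixed. Both genes were therefore nearly restricted to TKO1 among the tumor cells.

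The antiviral effectors that act on RNA and membranes showed the same direction. Ifit1, which binds viral RNA with a foreign cap, had 197 UMIs (53.3 CPM) in TKO1 and 0 UMIs in TKO2. Set against the level of 3 UMIs in TKO2 (0.386 CPM), it was 138-fold higher (log2 7.11), and the lower end of its interval was 6.80. The nearby Ifit3 was almost absent from both, with 1 UMI in TKO1 (0.271 CPM, 0.00685 to 1.51) and 0 UMIs in TKO2, so no ratio was formed. Rsad2 (viperin), an enzyme that makes a chain-terminating nucleotide, had 271 UMIs (73.3 CPM) against 10 (1.29 CPM), which was 56.9-fold (log2 5.83, 4.93 to 6.91). Oasl2, a member of the oligoadenylate synthetase family, had 25 UMIs (6.76 CPM) against 0. Set against the level of 3 UMIs it was 17.5-fold higher in TKO1 (log2 4.13, lower end 3.72).

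Ifitm3, a membrane protein that hinders fusion of viruses with endosomes, was the member with the smallest difference. It had 729 UMIs (197 CPM) in TKO1 and 153 UMIs (19.7 CPM) in TKO2, a 10.0-fold ratio (log2 3.32, 3.07 to 3.58), and it made up most of the members' UMIs in TKO2 tumor cells. Ifi27l2a, a small interferon-induced membrane protein, had 939 UMIs (254 CPM) and 9 UMIs (1.16 CPM), a ratio of 219-fold (log2 7.78, 6.84 to 8.91). Irf7, the transcription factor that amplifies type I interferon production, had 129 UMIs (34.9 CPM) and 5 UMIs (0.644 CPM), a 54.2-fold ratio (log2 5.76, 4.50 to 7.41). The lower end of the interval lay past 4-fold for each of the 8 genes, and the lowest of these ends was that of Ifitm3.

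**Figure D1:**
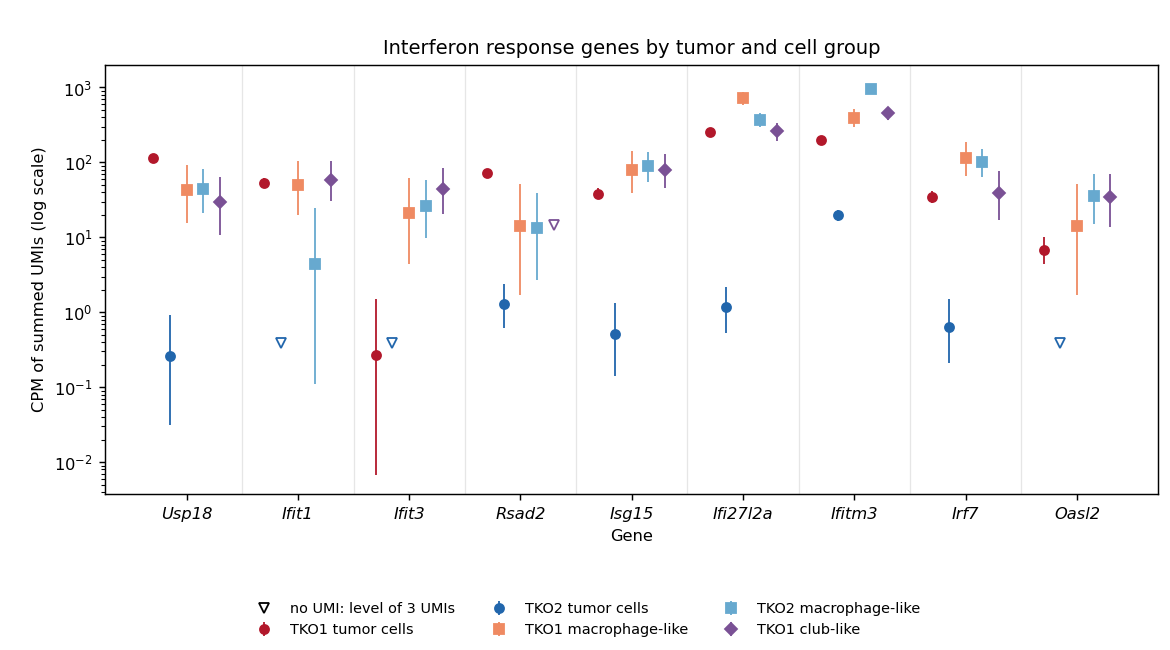
Level of each of the 9 genes (CPM of summed UMIs, log axis) in tumor cells and macrophage-like cells of both tumors and in club-like cells of TKO1, with exact Poisson 95% intervals that cover counting error only; open triangles stand at the level of 3 UMIs where no UMI was found. For Usp18 the tumor cells lie at 114 CPM in TKO1 and 0.258 CPM in TKO2, while the macrophage-like cells lie at 42.7 and 44.2 CPM.

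Over all 12832 genes with at least 10 UMIs in the tumor cells, 1784 (13.9%) were at least 4-fold higher in TKO1 and 588 (4.58%) at least 4-fold lower, against 8 higher and 0 lower of the 8 members. The members were chosen with earlier results of these data known, so these counts are descriptions. The median log2 ratio was 6.02 over the members and 0.37 over all genes. Relative to that shift of 0.37, the members' ratios ran from 2.95 (Ifitm3) to 8.43 (Usp18). Under TMM scaling the shift was 0.01 and the share of called genes that were higher in TKO1 fell from 75.2% to 64.8%, and each of the 8 members stayed past 4-fold. Ribosomal protein genes took 10.6% of tumor cell UMIs in TKO1 and 23.1% in TKO2, and the 8 calls also held with a total that left out ribosomal protein and mitochondria-encoded genes. In tumor cells without any UMI of a macrophage or club cell marker (1668 of TKO1, 2805 of TKO2), Usp18 had 234 and 2 UMIs (log2 8.32), Ifi27l2a 559 and 8 (7.57), and Ifitm3 457 and 125 (3.32), close to the values over all tumor cells.

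Within each tumor, the levels were followed over the clusters of tumor cells. All 7 clusters of TKO1 held UMIs of the 8 members other than Ifit3, although Isg15 and Oasl2 had a single UMI each in cluster 3. For Ifi27l2a and Ifitm3 the interval of every TKO1 cluster lay above those of all 10 TKO2 clusters, the lowest TKO1 levels being 121 CPM (98.8 to 147) and 108 CPM (79.0 to 145) and the highest TKO2 levels 6.77 and 54.9 CPM. The share of all genes that separate in this way was not counted, so whether it is unusual is not known. For the other 6 genes the intervals of some clusters overlapped between the tumors, so not every pair of clusters was set apart at this depth. The levels varied among TKO1 clusters in different ways from gene to gene. Ifit1, Rsad2 and Isg15 peaked together in cluster 7, led by Neurog3, Nefm and Nefl, a proneural factor and neurofilament genes, with 244 CPM (194 to 303), 413 CPM (346 to 488) and 157 CPM (117 to 205). They were lowest in cluster 3, led by Dcpp1 and Npy1r, at 9.37, 11.7 and 2.34 CPM. Rsad2 was itself the tenth leading gene of cluster 7, although it was kept out of the clustering.

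Ifi27l2a and Ifitm3 peaked elsewhere, in cluster 5, which was led by Tspan8, Dusp26, Dcn and Tph1. They reached 997 CPM (894 to 1110) and 624 CPM (543 to 715) there, 8.24 and 5.78 times their lowest clusters. Usp18 had an order of its own, from 36.1 CPM (18.7 to 63.1) in cluster 7 to 164 CPM (136 to 197) in cluster 0. Thus the cluster that was highest in Ifit1, Rsad2 and Isg15 was the lowest in Usp18. Irf7 varied least, from 21.1 CPM in cluster 7 to 53.3 CPM in cluster 5, and the intervals of those clusters (8.47 to 43.4 and 31.6 to 84.2) overlap. Oasl2 had 25 UMIs over all 7 clusters, which is too few to order them. In TKO2, Ifitm3 was found mainly in 4 clusters, at 54.9, 38.0, 38.6 and 42.8 CPM in clusters 3 to 6, and at no more than 16.2 CPM in the other 6 clusters. The other members did not exceed 6.77 CPM in any cluster of TKO2 tumor cells.

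**Figure D2:**
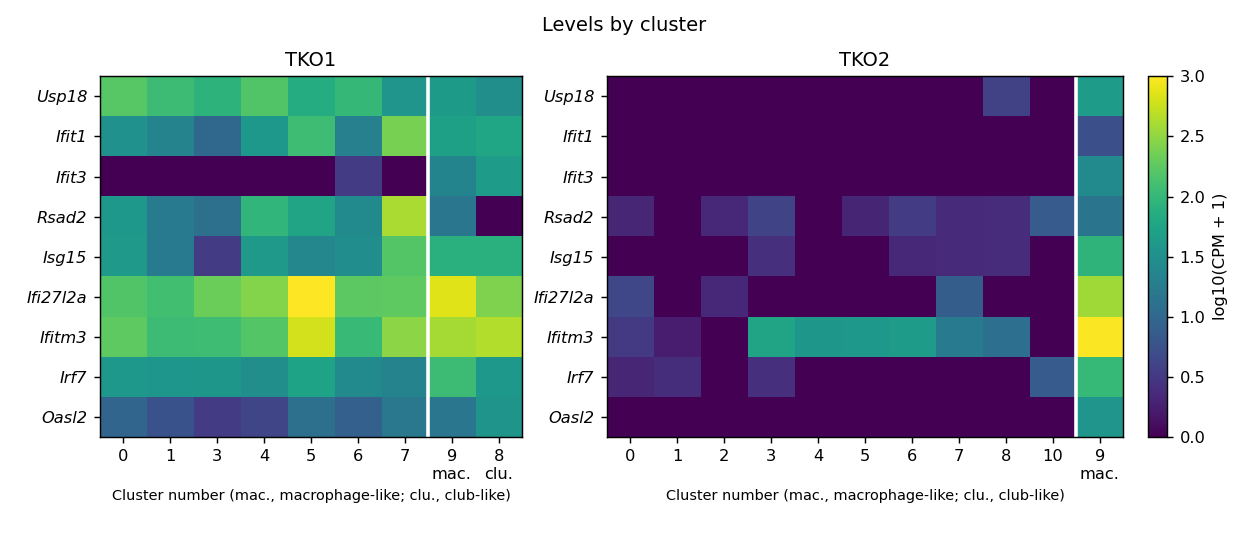
Level of each gene (colour, log10 of CPM plus 1) in every named cluster of TKO1 (left) and TKO2 (right), tumor cell clusters first and the macrophage-like and club-like clusters after the white line. Ifit1 and Rsad2 are brightest in cluster 7 of TKO1 (244 and 413 CPM) and Ifi27l2a in cluster 5 (997 CPM), and the TKO2 tumor clusters are dark apart from Ifitm3.

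The tumor cells were next set against the macrophage-like cells of the same tumor, which share their library. In TKO1 the 9 genes summed to 772 CPM (744 to 801) in tumor cells and to 1445 CPM (1253 to 1658) in macrophage-like cells. Of 8 members tested, 1 was at least 4-fold higher in tumor cells and 0 lower, with a median log2 ratio of -1.01, against 9.01% of all 9333 genes higher, 7.71% lower and a median of 0.37. The member past 4-fold was Rsad2, with 271 UMIs (73.3 CPM) in tumor cells and 2 UMIs (14.2 CPM) in macrophage-like cells, 5.15-fold (log2 2.37, 0.50 to 5.42). With cells of more than 1000 genes alone it was at 0.90 and no longer past 4-fold. Usp18 had 114 CPM in tumor cells and 42.7 CPM (6 UMIs) in macrophage-like cells, 2.68-fold (log2 1.42, 0.29 to 2.88), and Ifit1 had 53.3 and 49.8 CPM (log2 0.10, -0.97 to 1.43).

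The other 5 members tested had ratios below 0 and inside 4-fold. Ifi27l2a had 254 CPM in tumor cells and 719 CPM in macrophage-like cells (log2 -1.50, -1.80 to -1.19), Ifitm3 had 197 and 391 CPM (-0.99, -1.39 to -0.57), and Irf7 had 34.9 and 114 CPM (-1.71, -2.46 to -0.86). For Isg15 (38.1 and 78.3 CPM, -1.04, -1.92 to 0.00) and Oasl2 (6.76 and 14.2 CPM, -1.07, -3.08 to 2.05) a difference was not detectable at this depth. Ifit3 had 1 UMI in tumor cells (0.271 CPM) and 3 in the much smaller macrophage-like group (21.3 CPM). Its log2 ratio was -6.30 (-12.02 to -2.66), past 4-fold, but with fewer than 10 UMIs it was not among the genes tested.

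In TKO2 the members were lower in tumor cells than in macrophage-like cells. All 6 members tested were at least 4-fold lower, with a median log2 ratio of -7.36, against 10.5% of all 9898 genes lower, 5.43% higher and a median of 0.30. Of them, Usp18, Isg15, Ifi27l2a and Irf7 reached the minimum of 10 UMIs only through the macrophage-like cells, where they were high. Usp18 had 0.258 CPM in tumor cells and 44.2 CPM (10 UMIs) in macrophage-like cells (log2 -7.42, -10.65 to -5.19). Isg15 had 0.515 and 88.4 CPM (-7.42, -9.43 to -5.84), Ifi27l2a 1.16 and 371 CPM (-8.32, -9.50 to -7.33), and Irf7 0.644 and 102 CPM (-7.30, -9.05 to -5.87). The gap was smaller for Ifitm3, at 19.7 and 959 CPM (-5.60, -5.91 to -5.30), and for Rsad2, at 1.29 and 13.3 CPM (-3.36, -5.32 to -0.86), which had 3 UMIs in the macrophage-like cells. Ifit3 (0 and 6 UMIs), Oasl2 (0 and 8) and Ifit1 (0 and 1) were under the minimum of 10 UMIs. Under TMM scaling the share of called genes that were higher in tumor cells fell from 53.9% to 38.3% in TKO1 and from 34.1% to 21.4% in TKO2.

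The macrophage-like cells of the 2 tumors were then compared with each other, a comparison chosen after the data were seen. Of the 6 members tested, 0 were 4-fold higher and 0 were 4-fold lower in TKO1, with a median log2 ratio of -0.11, against 3.20% higher and 3.64% lower of all 4720 genes. Usp18 (42.7 and 44.2 CPM), Isg15 (78.3 and 88.4 CPM) and Irf7 (114 and 102 CPM) had ratios of -0.05 (-1.79 to 1.55), -0.18 (-1.38 to 0.96) and 0.16 (-0.85 to 1.15). These intervals end below those of the tumor cells for the same genes, whose lower ends were 6.93, 4.82 and 4.50. Ifi27l2a was higher in TKO1 (719 against 371 CPM, log2 0.95, 0.52 to 1.39) and Ifitm3 was lower (391 against 959 CPM, -1.29, -1.75 to -0.86). Ifit1, Ifit3 and Rsad2 had too few UMIs to be among the genes tested. Ifit1 had 7 UMIs (49.8 CPM) in TKO1 and 1 UMI (4.42 CPM) in TKO2. Its log2 ratio was 3.49 (0.53 to 8.99), past 4-fold and in the same direction as in the tumor cells. Ifit3 had 3 and 6 UMIs (-0.31, -2.94 to 1.91) and Rsad2 had 2 and 3 UMIs (0.1, -3.48 to 3.23). Summed, the 9 genes had 1445 CPM (1253 to 1658) in TKO1 and 1644 CPM (1481 to 1820) in TKO2 macrophage-like cells.

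Club cells are secretory cells of the airway lining, and only TKO1 had a cluster that could be named from them. The 9 genes together summed to 996 CPM (864 to 1143) in these club-like cells, against 772 CPM in the tumor cells beside them. Ifitm3 alone gave 452 and 197 CPM of these sums, so the higher sum does not show that the set as a whole was higher. Of 9 members tested, 1 was at least 4-fold higher in tumor cells and 2 lower (median log2 ratio -0.17), against 6.91% higher and 4.01% lower of all 10026 genes (median 0.52). Rsad2 had 0 UMIs in club-like cells and was at least 4.98-fold higher in tumor cells. Ifit3 went the other way, with 9 UMIs (44.2 CPM, 20.2 to 83.8) in 111 club-like cells and 1 UMI in 2565 tumor cells (log2 -7.35, -12.80 to -4.50), as did Oasl2 (34.4 and 6.76 CPM, -2.34, -3.59 to -0.89). The ratio of Ifit1, which lies close to Ifit3, was near 0, at 58.9 CPM in club-like and 53.3 CPM in tumor cells (-0.14, -0.98 to 0.83). With so few UMIs of Ifit3, the difference between the 2 ratios was not tested.

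Usp18 was higher in tumor cells than in club-like cells, at 114 against 29.4 CPM (log2 1.96, 0.82 to 3.41), just inside 4-fold. Ifi27l2a (254 and 260 CPM) and Irf7 (34.9 and 39.3 CPM) had ratios of -0.03 (-0.43 to 0.39) and -0.17 (-1.19 to 1.07), and Isg15 (38.1 and 78.5 CPM) and Ifitm3 (197 and 452 CPM) were lower in tumor cells by less than 4-fold. Under TMM scaling Rsad2 was at 1.79 on the log2 scale, below 4-fold, and the share of called genes that were higher in tumor cells fell from 63.3% to 30.9%. Oasl2 was at -1.87, inside 4-fold, when tumor cells with a macrophage or club cell marker UMI were left out. In the unnamed cluster of TKO2 led by club cell markers the 9 genes summed to 1188 CPM (999 to 1403), with Ifitm3 at 820 CPM, Ifi27l2a at 231 CPM and Ifit1 at 68.4 CPM, and Rsad2 and Isg15 at 0 UMIs. In that tumor, therefore, 372 UMIs of the 9 genes came from 121 macrophage-like cells and 139 UMIs from these 65 cells, against 183 UMIs from 3382 tumor cells. The 65 unnamed cells had 8426 CPM of neuroendocrine markers against 1792 CPM in the tumor cells, so they are not a shown non-tumor group. The unnamed cluster of TKO1 led by ciliated cell markers had 589 CPM (525 to 658), with Usp18 at 201 CPM and Ifi27l2a at 79.8 CPM.

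Detection in single cells was compared after each cell was thinned to 1000 UMIs, which left 1859 tumor cells of TKO1 (706 shallower cells left out, median depth before thinning 1419 UMIs) and 3020 of TKO2 (362 left out, 2107.5 UMIs). In TKO1, Ifitm3 was detected in 13.8% of tumor cells (exact Clopper-Pearson 95% interval 12.3 to 15.5), Usp18 in 9.52% (8.22 to 10.9) and Ifi27l2a in 9.20% (7.92 to 10.6). Rsad2 was detected in 3.87%, Irf7 in 2.74%, Ifit1 in 2.69%, Isg15 in 2.53% and Oasl2 in 0.592%, and the intervals of Irf7, Ifit1 and Isg15 overlap. Ifit3 was in 0 of 1859 cells, which by the rule of 3 counts allows a share of up to 0.161% with a UMI at this depth and does not limit the share of cells expressing it. Without thinning Ifit3 was in 1 of 2565 cells, and the shares were 17.0% for Ifitm3, 12.9% for Usp18 and 11.8% for Ifi27l2a. In TKO2, Ifitm3 was in 1.75% (1.32 to 2.29) of tumor cells, and each other member was in at most 5 of 3020 cells (0.166% for Rsad2). A cell type known to lack these genes was not available to give the share that free RNA alone would produce.

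The number of molecules per positive cell differed between genes of like share. Over all 2565 tumor cells of TKO1, the 423 UMIs of Usp18 lay in 331 cells, or 1.28 per positive cell with at most 5 in a cell, so they were spread thinly. The 939 UMIs of Ifi27l2a lay in 302 cells, or 3.11 per positive cell with up to 29 in a cell. Rsad2 (271 UMIs in 115 cells, 2.36 per cell, up to 10), Isg15 (141 in 76 cells, 1.86) and Ifit1 (197 in 113 cells, 1.74, up to 13) also had more UMIs per positive cell than Usp18. Irf7 (129 in 105 cells, 1.23, up to 7) and Oasl2 (25 in 24 cells) did not. In macrophage-like cells at the same depth, Ifi27l2a was in 39.5% (28.8 to 51.0) of 81 cells of TKO1, which is above its share in tumor cells, and Usp18 was in 1.23% (0.0313 to 6.69), 1 cell.

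The last question on the members was whether they were detected in the same cells. In TKO1, 609 of 1859 tumor cells (32.8%) held at least 1 member, 156 (8.39%, 7.17 to 9.75) at least 2, 51 (2.74%, 2.05 to 3.59) at least 3 and 15 (0.807%, 0.452 to 1.33) at least 4. If the members were spread independently, the product of their shares would give 699, 125, 12 and 0.655 cells, so fewer cells than that held any member and more held 3 or 4. In TKO2, 65 of 3020 cells held 1 member and 0 held 2 or more, where the product gives 0.228 cells.

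Of the 36 pairs, 15 had a product of at least 3 cells, and 10 of these (66.7%) were found together in at least 1.5 times as many cells as the product. Over 6833307 pairs of genes with shares in the range of these members (47 to 257 cells) 10.0% were, and the medians were 2.01 for the members and 0.983 for all pairs. Isg15 and Ifitm3 were together in 20 cells against 6.50 (3.08 times), Ifi27l2a and Ifitm3 in 57 cells against 23.6 (2.41), and Ifi27l2a and Irf7 in 12 cells against 4.69 (2.56). The ratios of Usp18 were mostly lower, at 0.840 for Ifit1, 0.983 for Ifi27l2a, 1.17 for Rsad2, 1.23 for Ifitm3 and 1.44 for Irf7, and 2.01 for Isg15 (9 cells against 4.47). Pairs with a smaller product were not scored and have no background share. Some of them were near or below it, such as Ifi27l2a with Oasl2 in 1 cell against 1.01 and Usp18 with Oasl2 in 0 against 1.05. Those with the most cells, picked after the counts were seen, were Rsad2 and Isg15, in 25 cells against 1.82. Ifit1 and Rsad2 followed with 22 against 1.94, and Ifit1 and Isg15 with 14 against 1.26. Taken within clusters and summed, the products of the last 3 pairs became 4.38, 4.06 and 2.62 cells. For these pairs a part of the overlap thus lay between clusters and a part within them. By that product 11 of 17 scored pairs (median 1.76) were at 1.5 or more. Rsad2 with Isg15 and Ifit1 with Rsad2 were scored only there. The same share over all gene pairs within clusters was not computed, so this count has no background.

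The cells with several members were unevenly placed. Cluster 7 held 17 of the 51 cells with at least 3 members (17 of its 168 cells, 10.1%, 6.01 to 15.7), cluster 5 held 8 (5.23%, 2.28 to 10.0) and cluster 3 held 1 of 211 (0.474%). All of Ifit1, Rsad2 and Isg15 were found in 12 cells, 8 of them in cluster 7. The 51 cells with at least 3 members had a median depth of 1535 UMIs before thinning against 1419 for all, and 37.3% of these 51 held a macrophage or club cell marker UMI against 38.4% of all.

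**Figure D3:**
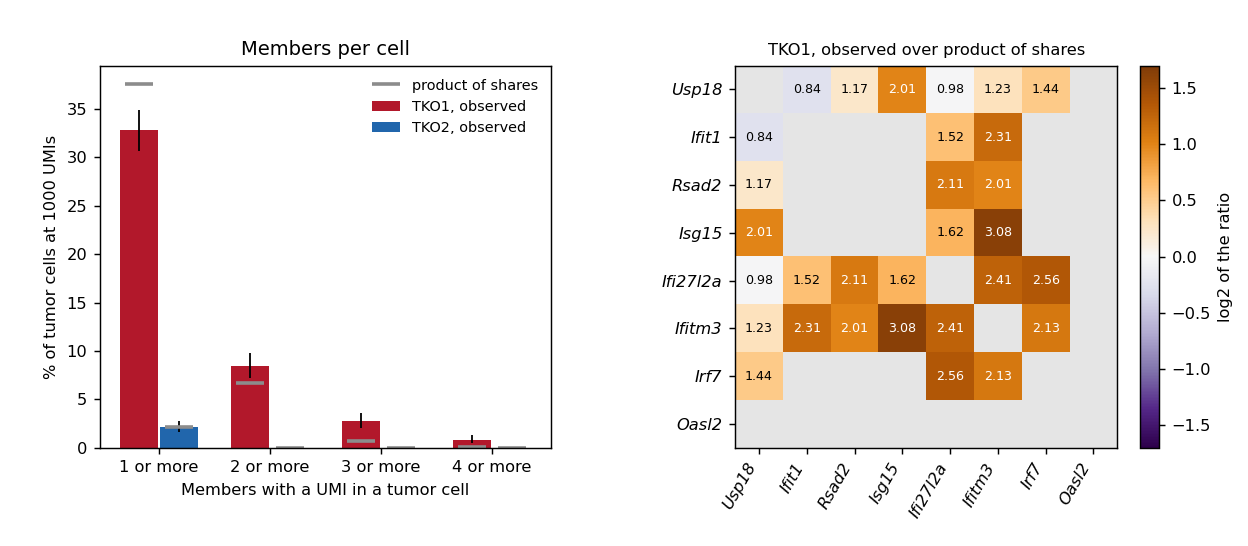
Left, percent of tumor cells (each thinned to 1000 UMIs) with at least 1 to 4 of the 9 genes, observed (bars with exact 95% intervals) and by the product of shares (grey lines); right, observed over product for each scored pair in TKO1, coloured by its log2, with unscored pairs in grey. In TKO1 2.74% of cells held 3 or more members, 51 cells against 12 by the product, and the row of Usp18 is paler than the others.

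The genes whose level followed the summed members most closely over these 1859 tumor cells of TKO1 were B2m (Pearson r 0.36), H2-D1 (0.28), Rtp4 (0.28) and H2-K1 (0.22), of 8437 genes compared. B2m, H2-D1 and H2-K1 encode class I histocompatibility chains and Rtp4 is an interferon-induced effector. Gyg (0.19), Zbp1 (0.18), Mest (0.18), Tfap2b (0.17), Efna2 (0.16) and Iapp (0.15) came next, with values too low to order in sparse counts. These cells share 1 library, so the values are descriptions. Against the sum of the other members, r was 0.36 for Ifitm3, 0.29 for Isg15, 0.26 for Ifit1 and 0.25 for Rsad2 and Ifi27l2a, and 0.02 for Usp18. In TKO2 the highest was Cldn3 (0.20), and the sum there is mostly Ifitm3.

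The rest of the pathway was read from lists of ligands, receptors, sensors, regulators and effectors. None of the 7 type I interferon genes on the list had a UMI in any cell group of either tumor. By the rule of 3 counts, 0 UMIs allow up to 0.812 CPM for each of them in TKO1 tumor cells, and up to 21.3 CPM in its macrophage-like cells. Ifng, the type II interferon, had 2 UMIs, both in the macrophage-like cells of TKO1, which also held T and NK cell marker UMIs. Plasmacytoid dendritic cells, strong producers of type I interferon, were not seen as a cluster. Of their 4 markers, Siglech and Ccr9 were at 0 in TKO1 tumor cells, and the other 2, Cox6a2 and Klk1, summed to 798 UMIs (216 CPM), against 14.3 CPM for the list in TKO2 tumor cells (3 of 4 with a UMI). In the macrophage-like cells of TKO1, 1 of the 4 had UMIs (21.3 CPM), and Siglech was again at 0. In those of TKO2 all 4 had UMIs, 9 together (39.8 CPM), and in TKO2 tumor cells Ccr9 alone was at 0. The part of such cells in the results was not tested.

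Between the tumor cells of TKO1 and TKO2, 44 of the 65 other pathway genes tested were at least 4-fold higher in TKO1 and 0 lower, with a median log2 ratio of 3.49, beside the 13.9% of all genes higher and 4.58% lower. These lists too were chosen with earlier results of these data known, and the minimum of 10 UMIs was again over both groups. A gene near 0 UMIs in TKO2 could therefore be tested only through TKO1, and could then only come out as higher. Of the receptors and signal transducers 5 of 11 were higher. Ifnar1, which docks Tyk2, had 96 UMIs (26.0 CPM) in TKO1 and 44 (5.67 CPM) in TKO2 (log2 2.20, 1.67 to 2.75), and Ifnar2 had 13.0 and 5.28 CPM (1.30, 0.67 to 1.94). The kinases differed less, with Jak1 at 17.6 and 9.92 CPM (0.83) and Tyk2 at 1.89 and 2.19 CPM (-0.21, -1.72 to 1.13). Of the factors that bind the response element, Irf9, itself interferon-induced, had 8.39 and 1.29 CPM (2.70, 1.64 to 3.90), while Stat2 had 4.87 and 1.55 CPM (1.66, 0.52 to 2.84). The receptor chain Il10rb (2.90) and the kinase Jak2 (3.26) were also past 4-fold.

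Among sensors of foreign or misplaced nucleic acid, 6 of 10 were higher in TKO1. Mb21d1 (cGAS), which senses cytosolic DNA, had 56 UMIs in TKO1 and 3 in TKO2 (log2 5.29, 3.67 to 7.61), and Tmem173 (STING), to which it signals, had 116 and 8 (4.93, 3.90 to 6.17). The RNA helicases Ifih1 (72 and 11 UMIs, 3.78), Ddx58 (16 and 1, 5.07) and Dhx58 (15 and 1, 4.98) and the adaptor Myd88 (41 and 11, 2.97) were also higher. Mb21d1, Tmem173, Ddx58 and Dhx58 had fewer than 10 UMIs in TKO2 and reached the minimum through TKO1. Of the negative regulators 2 of 6 were higher, Socs3, a brake on Jak kinases, at 371 and 32.1 CPM (3.53) and the phosphatase Ptpn6 at 82.0 and 20.4 CPM (2.01). Of the 3 tested genes that attach Isg15, Ube2l6, the conjugating enzyme, was higher, at 47.6 and 2.45 CPM (4.28, 3.60 to 5.05).

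Of the other interferon-induced effectors, 22 of 26 were higher in TKO1, with a median log2 ratio of 4.26. They included Zbp1, a sensor of left-handed nucleic acid (89 UMIs against 1, log2 7.55, 5.03 to 12.87), the secreted glycoprotein gene Lgals3bp (106 against 2, 6.80), Ifi27, next to Ifi27l2a (1251 against 29, 6.50), and the receptor transporter gene Rtp4 (67 against 2, 6.14). Cmpk2, which lies beside Rsad2 and supplies its nucleotide substrate, had 264 and 56 UMIs (3.31, 2.89 to 3.75). The 4 tested effectors inside 4-fold were Ifitm2 (1.71), Adar (0.89), Bst2 (0.62) and Ccl5 (-0.86), named after their values were seen. Class I antigen presentation followed, with 8 of 9 higher. The immunoproteasome subunits Psmb8 (226 and 1.42 CPM, log2 7.32) and Psmb9 (70.9 and 1.42 CPM, 5.64), the peptide transporter chains Tap1 (5.16) and Tap2 (5.08), and H2-K1 (4.06), H2-D1 (3.49) and B2m (2.30) were among them. The exception was the third immunoproteasome subunit, Psmb10, at 36.3 and 37.1 CPM (-0.03, -0.34 to 0.27), also named after its value was seen.

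**Figure D4:**
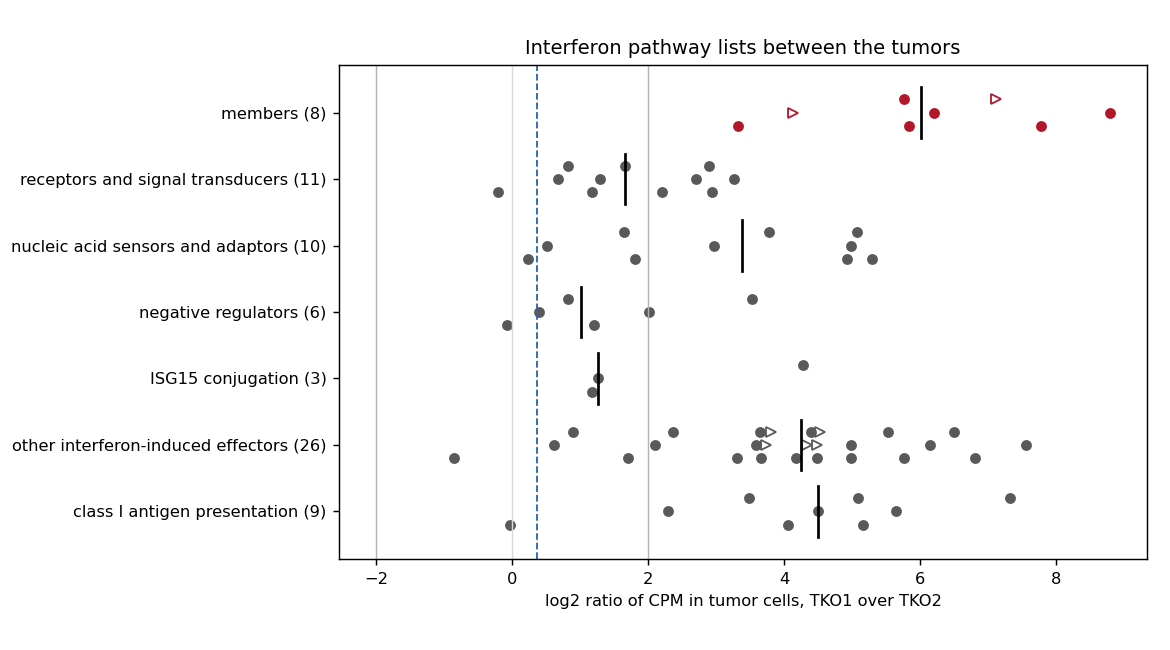
Log2 ratio of CPM in tumor cells of TKO1 over TKO2 for every tested gene of each pathway list, a point per gene (open triangles are set against the level of 3 UMIs where TKO2 had 0 UMIs), with black bars at list medians, grey lines at 0 and at 4-fold either way, and a dashed line at the median of all tested genes (0.37). The members range from 3.32 to 8.79 and the other effectors from -0.86 to 7.55, while the receptors and signal transducers lie lower, from -0.21 to 3.26.

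Against the macrophage-like cells of the same tumor, more of the other pathway genes were at least 4-fold lower than higher in tumor cells of both tumors. In TKO1, 1 of 64 was at least 4-fold higher in tumor cells and 19 were lower (median log2 ratio -0.97), and in TKO2, 0 of 54 were higher and 40 lower (median -3.46), beside the shares of all genes given above. A gene near 0 UMIs in tumor cells could be tested only through the macrophage-like cells, and could then only come out as lower. In TKO2 this held for Zbp1 (1 and 12 UMIs), Rtp4 (2 and 15) and Lgals3bp (2 and 23), among others. The higher gene in TKO1 was Cmpk2 (264 and 1 UMIs, log2 3.33, 0.84 to 8.64), the neighbour of Rsad2. The receptor chain Ifnar2 was lower in tumor cells of both tumors (-2.94, -3.82 to -1.97, and -3.91, -4.74 to -3.03). Against club-like cells of TKO1, 1 of 65 was higher and 12 lower (median -0.49). The higher gene was Ptpn6, with 303 UMIs in tumor cells and 1 in club-like cells (log2 4.06, 1.57 to 9.37).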

How the data were processed

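Single-cell RNA-seq was done on live cells sorted from 1 dissociated tumor of each of 2 TKO mice. The deposited values are raw UMI counts of genes in barcodes, in whole numbers and with no normalization by the authors. The submitters' processing notes name Cell Ranger, Seurat and mm10 without versions. The members and all gene lists were chosen with earlier results of these data known.

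Barcodes with more than 500 genes were clustered by tumor with Seurat 5.3.0 in R 4.3.3 (genes in at least 10 cells, 10000 per cell, log scale, 1000 variable genes without pathway genes, 10 principal components, resolution 0.8). A cluster was named from at least 3 fixed markers that were 4-fold higher than in the other cells, or for neuroendocrine markers 2-fold higher than in macrophage-like cells. Of the gene identifiers, 27722 of 27998 matched GENCODE M21. Scrublet (scanpy 1.11.5) called 0 doublets, so the 151 and 136 cells above the 95th percentile of its score were left out only as an alternative.

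UMIs were summed per cell group and given as CPM with exact Poisson 95% intervals. Log2 ratios have exact conditional binomial intervals. A gene counted as tested with at least 10 UMIs over both groups, and called at 4-fold or more. For 0 UMIs the level of 3 UMIs was used, and a gene for which this gave no bound was not tested. Co-detection was counted after thinning to 1000 UMIs (seed 1), over pairs whose product of shares gave at least 3 cells, and called at 1.5. Cells are not replicates, so no test and no p-value was made. Intervals cover counting error only, and the totals per group, from 140523 to 7762006 UMIs among named groups, set their width.

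Genes named are the members, pathway genes past 4-fold, the ligands, receptors and transducers, neighbours of members, the 10 closest correlates and cell type markers, and leading genes are named only to identify clusters. A pathway gene counted in its list is not reported here by name. TMM factors came from edgeR 4.0.16 with Matrix 1.6.5, and no edgeR test was run. Python 3.11.15, numpy 2.4.6, scipy 1.17.1, pandas 2.3.3 and matplotlib 3.10.9 were used. The steps were tested on simulated data. Alternatives covered cell filters, clustering, doublets, scaling, minimum counts and thinning depth. The inclusion or removal of clusters with markers of other types, the comparison of macrophage-like cells, and the product within clusters were added after seeing the data. Other cell line and human data of the study were not used here.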

Additional observations from a re-analysis of the deposited data

Results flagged for a closer look

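Usp18 and Rsad2 had opposite directions in the 2 tumors when tumor cells were set against macrophage-like cells of the same library. The log2 ratio of Usp18 was 1.42 in TKO1 and -7.42 in TKO2, and that of Rsad2 was 2.37 in TKO1 and -3.36 in TKO2. With 1 library per tumor the difference between these ratios was not tested. Rsad2 had 2 and 3 UMIs in the macrophage-like cells, so the size of its ratios is loosely fixed.

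Barcodes with at most 500 genes, which were in no comparison, also held UMIs of the 9 genes. Summed, they had 1111 CPM (1035 to 1191, 798 UMIs) in 1321 barcodes of TKO1 and 333 CPM (255 to 427, 62 UMIs) in 248 barcodes of TKO2, against 772 and 23.6 CPM in tumor cells. Ifit3 had 14 UMIs in these barcodes of TKO1 and 1 UMI in its tumor cells. The cell types behind these barcodes were not determined.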

How the results depend on the processing

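The higher levels of the 8 members in TKO1 tumor cells held under every alternative that gave a value (14 for each gene, 13 for Oasl2, which was not tested with a minimum of 50 UMIs), with log2 ratios from 2.91 to 3.66 for Ifitm3 and from 8.13 to 9.65 for Usp18. The alternatives with a minimum of 50 UMIs or of 1 UMI change only which genes are tested, so they could not move a gene's ratio. No paired analysis was possible because each tumor has 1 library and no result comes from a test. A club-like cluster of TKO1 was not found with more than 200 or more than 1000 genes per cell or with 20 principal components, so that comparison has no value there. Small groups limit the rest, since 3 UMIs are 21.3 CPM in macrophage-like cells of TKO1. The cause of the changes below was not tested, except that a higher gene filter or minimum leaves fewer cells or genes.

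Against macrophage-like cells of TKO1, the members higher in tumor cells numbered 2 of 8 with more than 200 genes per cell and 0 of 8 with more than 1000, in place of 1, and the members lower numbered 1 of 8 with TMM factors, 1 of 9 with a minimum of 1 UMI and 1 of 8 without clusters holding a marker of another type among their leading genes, in place of 0. Single ratios there changed sign without passing 4-fold, Ifi27l2a from -1.50 to 0.80 with more than 1000 genes and Ifit1 from 0.10 to -0.23 with TMM factors. In TKO2 the members lower in tumor cells numbered 3 of 3 with more than 1000 genes and 2 of 2 with a minimum of 50 UMIs, in place of 6 of 6. Against club-like cells the members higher numbered 2 of 9 at resolution 0.4, without the highest Scrublet scores, with the cluster led by ciliated markers, and without clusters holding markers of another type, and 0 with TMM factors, in place of 1, and the members lower numbered 0 with a minimum of 50 UMIs and 0 in tumor cells without macrophage or club marker UMIs, in place of 2. Between macrophage-like cells 1 of 3 members was lower in TKO1 with more than 1000 genes, in place of 0. With a minimum of 1 UMI, 1 of 9 members, Ifit1, was higher in TKO1 there, in place of 0.

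Of the other pathway genes, 1 of 57 was lower in TKO1 tumor cells with more than 1000 genes, in place of 0. Against macrophage-like cells of TKO1, 2 of 67 were higher with more than 200 genes, 0 of 45 with more than 1000, 0 of 64 with 20 principal components and 2 of 62 without the highest Scrublet scores, in place of 1, and 8 of 45 were lower with more than 1000 genes and 11 of 42 with a minimum of 50 UMIs, in place of 19. In TKO2, 23 of 38 and 18 of 29 were lower under those 2 settings, in place of 40. Against club-like cells 4 of 42 were lower with a minimum of 50 UMIs, in place of 12. Between macrophage-like cells the lower genes numbered 0 with more than 200 genes, 3 with more than 1000, 0 with a minimum of 50 UMIs and 2 with a minimum of 1, in place of 1, and 3 of 71 were higher with a minimum of 1, in place of 0. Cells with 3 or more members made up 1.54% at 700 UMIs, 4.15% at 1500 and 4.60% without thinning, in place of 2.74%, and the pairs at 1.5 or more numbered 3 of 4 with more than 1000 genes and 18 of 23 without thinning, in place of 10 of 15.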

Other observations

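The annotated neighbours of the members were looked at beside them, up to 3 genes with UMIs on each side of each of the 8 members higher in TKO1. Of 32 tested neighbours that are in no pathway list, 12 (37.5%) were at least 4-fold higher in TKO1 tumor cells and 2 were lower, against 13.9% and 4.58% of all tested genes, and neighbours of 1 member share a locus. Distances are between the lower coordinates of the 2 genes. Tuba8, an alpha tubulin gene 35.2 kb from Usp18, had 193 UMIs in TKO1 and 2 in TKO2 (log2 7.66), and Iqsec3, on the other side, had 48 and 0. Cdhr5, 6.38 kb from Irf7, had 70 and 0 UMIs, while the dopamine receptor gene Drd4, 29.3 kb from Irf7, had 0 and 108. Beside Ifitm3, the cell adhesion gene Pkp3 had 50 and 7 UMIs and B4galnt4 had 2 and 25.

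The share of genes with the GAAANNGAAA repeat in a promoter window differed between the lists. It was 15 of 34 (44.1%) for the other interferon-induced effectors, 4 of 7 (57.1%) for the type I ligands, which had no UMI, and 3 of 8 for the sensors. It was 1 of 8 for class I antigen presentation and 1 of 10 for the receptors and transducers. Of all genes in the deposited table with a window, 708 of 17999 (3.93%) had it.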
